A study of Mus musculus with 72 samples.

Results

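The genes described here encode parts of the motile cilium, the beating hair on the surface of the ependymal cells that line the third ventricle of the hypothalamus. They were chosen by symbol. Every protein-coding gene named Dnah, Dnai, Cfap, Rsph or Drc followed by a number was taken, plus Foxj1, Ccdc153, Tmem212, Dynlrb2 and Ropn1l. This gave 74 genes of the 55401 listed in the largest deposited tables. The list was chosen with earlier results of these data known. All samples were RNA from the hypothalamus of adult B6 mice. In each of 5 lines, called E1 to E5, mice were either wild type or knocked out for 1 conserved noncoding element that the study links to hibernation, and were either fed or had gone 72 h without food but with water. No other allele or agent is named, and the labels do not say how the elements were deleted or how many founders a line had. The 20 groups held 4 libraries each, except 3 in all E3 groups, both fasted E2 groups, fasted E1 wild types and fasted E4 knockouts, 72 in all. Depth ran from 5517552 to 39999368 counts per library, and levels are given as CPM, counts scaled to a common library total. The labels do not say that each library came from a separate mouse, so p-values measure the spread between libraries.

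A motile cilium is built on an axoneme, a cylinder of doublet microtubules around a central pair. Outer and inner dynein arms on the doublets slide them past each other, radial spokes and the nexin-dynein regulatory complex shape that sliding into a beat, and the transcription factor Foxj1, together with the RFX family, turns on many of the genes. In the brain, ependymal cells carry such cilia, which help to move cerebrospinal fluid along the ventricle wall.

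RefSeq (GRCm38.p6) gave a promoter window for 59 of the 74 genes, counting only starts on the gene's strand in or within 5000 bases of the gene. The 6 letters GTTGCC, which form one side of the X-box that RFX factors bind (read on either strand, so GGCAAC as well), occurred within 250 bases before the start of 19 of these 59 genes (32.2%), against 3195 of 27025 genes in the whole table (11.8%). The forkhead letters GTAAACA (or TGTTTAC) occurred before 3 of 59 (5.08%), against 956 of 27025 (3.54%). A match is a description of letters and not a bound site. The 250 bases before the start are shown for the 4 of the singly named genes that the table holds, because these genes carry the fasting results below. They run 5′ to 3′ on the gene's strand, with GTTGCC in capitals. In Ccdc153 (chr9:44240427-44240676, plus strand) its first base lies at -152, in Dynlrb2 (chr8:116504765-116505014, plus strand) at -51 and in Ropn1l (chr15:31453690-31453939, minus strand) at -20, counted from the start. Tmem212 (chr3:27896369-27896618, minus strand) has neither motif in this window. Foxj1 and Cfap299 had no entry.
Ccdc153: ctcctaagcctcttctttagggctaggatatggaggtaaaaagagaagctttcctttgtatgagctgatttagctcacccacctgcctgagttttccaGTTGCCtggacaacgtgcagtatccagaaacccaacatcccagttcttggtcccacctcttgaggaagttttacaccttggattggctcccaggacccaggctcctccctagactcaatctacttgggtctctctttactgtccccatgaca
Dynlrb2: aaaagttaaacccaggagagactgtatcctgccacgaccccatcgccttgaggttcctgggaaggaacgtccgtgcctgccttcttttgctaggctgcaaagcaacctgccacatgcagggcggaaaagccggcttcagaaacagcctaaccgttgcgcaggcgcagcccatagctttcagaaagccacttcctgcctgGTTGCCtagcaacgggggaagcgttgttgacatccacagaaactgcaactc
Ropn1l: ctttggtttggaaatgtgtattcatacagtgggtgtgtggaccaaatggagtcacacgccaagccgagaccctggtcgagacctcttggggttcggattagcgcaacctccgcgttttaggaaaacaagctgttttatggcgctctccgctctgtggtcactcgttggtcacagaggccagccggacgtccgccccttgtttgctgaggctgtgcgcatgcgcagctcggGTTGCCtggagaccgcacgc
Tmem212: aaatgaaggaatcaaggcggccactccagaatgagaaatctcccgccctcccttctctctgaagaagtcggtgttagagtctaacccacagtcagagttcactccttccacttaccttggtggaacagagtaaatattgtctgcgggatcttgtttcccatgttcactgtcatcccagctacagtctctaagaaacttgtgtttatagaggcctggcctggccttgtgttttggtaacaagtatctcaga

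Of the 74 genes, 72 passed the filter on low counts in every comparison. Cfap107 (mean 0.132 CPM) and Cfap97d1 (mean 0.0178 CPM) did not and were not tested. Together the 74 genes made up 1027 to 1723 CPM, or 0.103% to 0.172% of a library's counts, with a median of 1398 CPM. Levels per kb of exon, which can be compared between genes, are a description over all 72 libraries. The outer arm heavy chains, the motors of the outer arm, had a median of 1.56 CPM per kb over 4 genes and the inner arm heavy chains 1.54 over 10 genes. The intermediate chains, which hold the motors to the doublet, had a median of 3.05 over 4 genes. Radial spoke proteins ranged most widely among the structural groups apart from the Cfap genes, from 0.365 to 18.9 CPM per kb with a median of 3.62 over 8 genes. The 3 genes of the nexin-dynein regulatory complex had a median of 3.82 CPM per kb, 39 of the 40 other Cfap genes a median of 2.25 (Cfap141 has no exon length in the annotation), and the 5 singly named genes a median of 5.6.

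**Figure D1:**
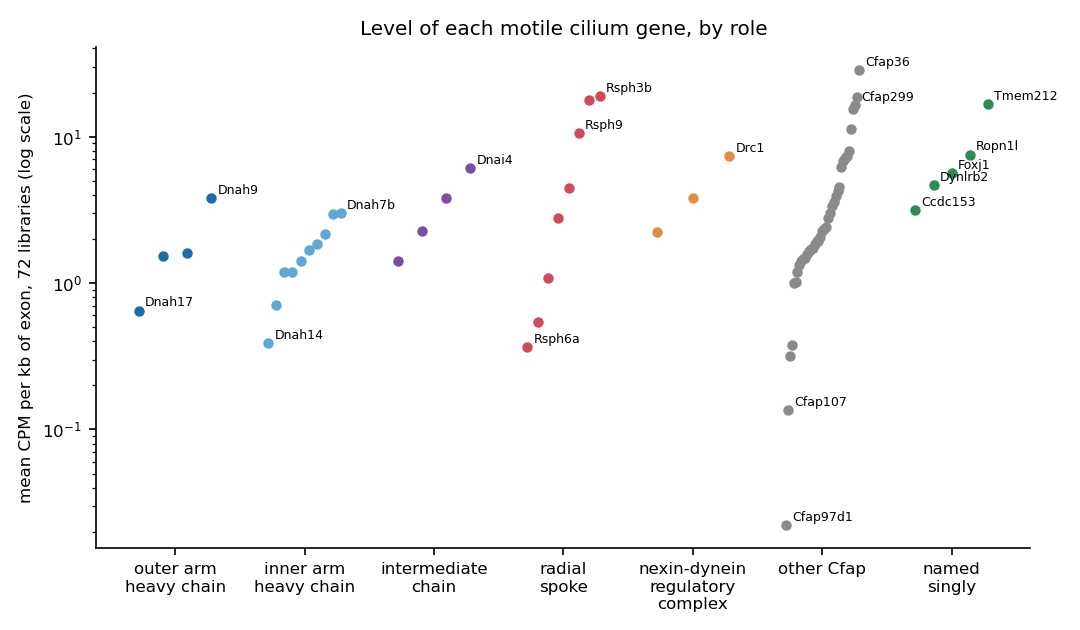
Mean CPM per kb of exon (log scale) of each of the 73 genes with an exon length over the 72 libraries, 1 point per gene, by role in the axoneme. The medians of the groups lie between 1.54 and 5.6 CPM per kb, and Cfap107 and Cfap97d1 lie at the bottom.

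In CPM, without regard to length, the highest outer arm chain was Dnah9 (mean 60.3), the highest inner arm chains were Dnah7b (60.1) and Dnah1 (38.9), and the highest intermediate chain was Dnai4 (44.2). Rsph3b (58.8) and Rsph3a (53.9) led the spoke genes, Drc1 (19.8) led its complex, and Cfap36 (78.4), Cfap46 (65.5), Cfap54 (57.4) and Cfap69 (49.0) led the Cfap genes. Dnah7a, Dnah7b and Dnah7c are close copies of each other, as are Rsph3a and Rsph3b, and how their shared reads were divided is not stated, so values for single copies are uncertain. The exons of 13 genes, among them Dnah3, Dnah11, Dnah14, Dnah17, Dnai1, Dnai4 and Cfap43, overlap those of another protein-coding gene. The strand used in counting is not given in the sources used here, and reads in such overlaps cannot be assigned with certainty. Foxj1 ranged from 5.44 to 25.4 CPM (median 14.6), Tmem212, a transmembrane protein used as an ependymal marker, from 4.59 to 29.3 (median 11.5), and Ccdc153, a coiled-coil protein of ciliated cells, from 2.17 to 12.9 (median 5.99). Some Cfap genes are also active in cells without motile cilia. Dynlrb2, a dynein light chain, ranged from 0.956 to 5.08 CPM (median 2.44).

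Ropn1l, a protein related to the sperm protein ropporin that associates with radial spokes, was the 1 gene of the 74 whose libraries in one line all lay apart from every other line. Its 12 E3 libraries held 11.5 to 31.9 CPM (median 15.5), above all 60 libraries of the other lines, at 2.17 to 9.24 CPM (median 4.67). How many of all genes lay apart in this way was not counted, so the count of 1 has no share to be set against. The E3 libraries also differed from the rest in the Y-linked gene Ddx3y, at 69.8 to 136 CPM against 0.298 or less, and in the number that the labels give as batch, so line, sex and batch cannot be told apart in any difference between E3 and another line.

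Within groups the genes tended to rise and fall together from library to library. For each gene the log2 deviation from its group mean was set against the median deviation of the other genes over the 72 libraries, which share depth and dissection. The median correlation was 0.59, and it was at least 0.5 for 52 genes. It was highest for the heavy chains Dnah6 (0.87) and Dnah11 (0.86) and for Cfap54 (0.85), a protein of the central pair. It was low for Cfap97 (0.14), Cfap77 (0.14) and Cfap298 (0.19), and also for Foxj1 (0.25) and Ropn1l (0.27). These are descriptions over libraries that share their source. No such value is given for other genes, so they do not show whether this is particular to the axoneme genes.

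**Figure D2:**
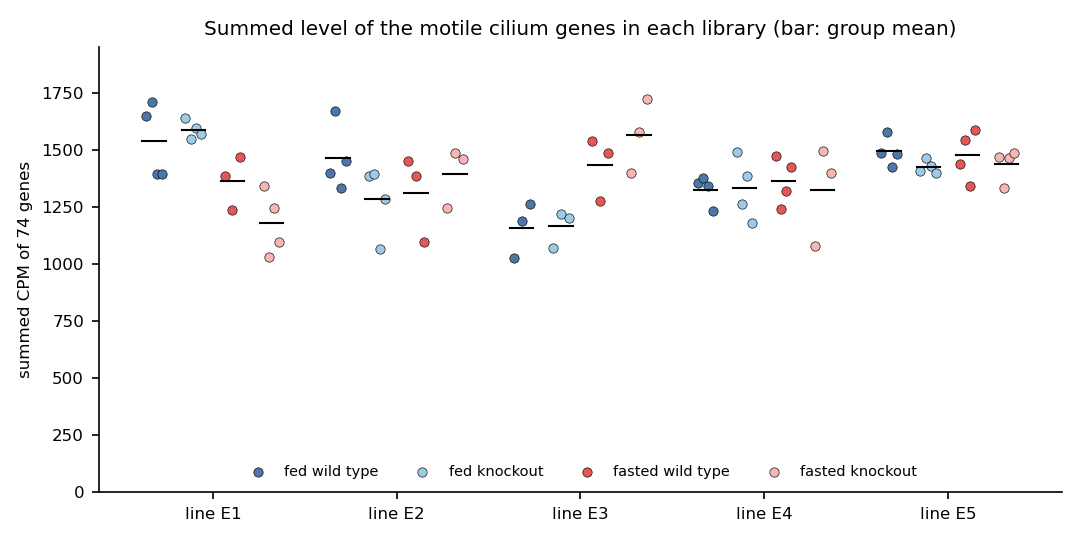
Summed CPM of the 74 genes in each of the 72 libraries by line, genotype and feeding state (points), with the group mean (bar). Fasted E1 libraries lie mostly below fed ones and fasted E3 libraries above all fed ones, with a range over all libraries of 1027 to 1723 CPM.

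Knockout of an element was tested first. In none of the 10 comparisons of knockout with wild type did any of the 72 genes pass edgeR's quasi-likelihood test at an adjusted p under 0.05, nor did any other gene in the tables (0% of the genes tested in each). At an unadjusted p under 0.05, 0 of the 72 genes were higher and 0 lower in fed E1 knockouts (2.09% of all genes higher, 2.76% lower), and 0 higher and 12 lower in fasted E1 knockouts (1.81% and 2.09% of all genes). Fed E2 knockouts had 0 higher and 2 lower (2.61% and 0.892%), and fasted E2 knockouts 1 and 0 (2.72% and 4.75%). Fed E3 knockouts had 1 and 1 (4.39% and 5.35%), and fasted E3 knockouts 6 and 3 (7.53% and 9.92%). Fed E4 knockouts had 1 and 1 (1.66% and 3.57%), and fasted E4 knockouts 10 and 0 (4.63% and 4.76%). Fed E5 knockouts had 1 and 7 (0.912% and 1.91%), and fasted E5 knockouts 0 and 6 (2.85% and 4.48%). The axoneme genes at this level thus lay on the lower side in fasted E1 and fasted E5, mostly lower in fed E5, and on the higher side in fasted E4. The median log2 difference of the 72 genes was -0.23 in fasted E1, -0.19 in fed E2, 0.12 in fasted E2, 0.16 in fasted E3 and 0.14 in fasted E4, and lay between -0.07 and 0.06 in the other comparisons. Markers of other tissues were high in some of these libraries. Fed E2 knockout 3 held 5028 CPM of fat markers and the lowest summed level of its group, 1064 CPM. The 3 fasted E2 wild types held 1288 to 11720 CPM of pituitary markers, against 19.6 to 42.1 CPM in the knockouts. Single fasted libraries of E4 and E5 held up to 6440 and 18917 CPM of these. Fasted E4 knockout 1 had the lowest depth, 5517552 counts. With each library left out in turn, the median of the 72 genes ran from -0.27 to -0.1 in fed E2 and from 0.02 to 0.24 in fasted E2. In fasted E4 it ran from 0.08 to 0.21 and in fasted E5 from -0.1 to -0.01. The part of the other tissues and of depth in the medians was not tested beyond this. DESeq2, with the same groups, called 2 of the genes in fasted E3 knockouts and 0 in the other 9 comparisons.

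**Figure D3:**
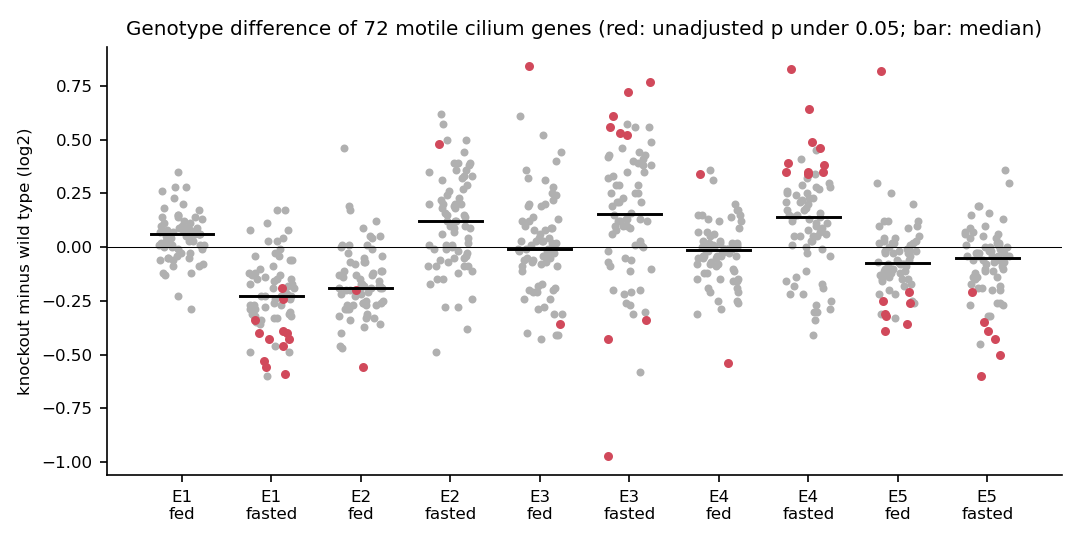
Log2 difference of knockout minus wild type for each of the 72 tested genes (points) in the 10 comparisons, with the median (bar) and genes at an unadjusted p under 0.05 in red. Most points lie below 0 in fasted E1, fed E2, fed E4 and both E5 comparisons. Most lie above 0 in fed E1, fasted E2, fasted E3 and fasted E4, and fed E3 is near even (35 above, 37 below). No gene passed the adjusted test.

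The genes with the smallest unadjusted p in these comparisons show the size of differences that the libraries could hold. Cfap46, a central pair protein, stood at 60.0, 55.2 and 80.7 CPM in fasted E1 wild types and at 59.9, 42.3, 50.6 and 39.8 CPM in fasted E1 knockouts. The groups overlapped, and the log2 difference was -0.43 (SE 0.15, edgeR adjusted p = 0.954). Cfap299 stood at 16.5, 12.8, 9.46 and 14.4 CPM in fasted E4 wild types and at 12.7, 20.8 and 20.2 CPM in fasted E4 knockouts. These groups overlapped as well, and the log2 difference was 0.64 (SE 0.17, edgeR adjusted p = 0.496). Rsph1, a protein of the spoke head, was 6.95, 9.15, 8.53 and 5.88 CPM in fed E2 wild types and 5.48, 5.69, 3.77 and 5.39 CPM in fed E2 knockouts. Here every knockout lay below every wild type, with a log2 difference of -0.56 (SE 0.19, edgeR adjusted p = 0.866). Rsph10b, another radial spoke protein, was at 0.905, 0.867 and 0.824 CPM in fed E3 wild types and at 1.1, 1.86 and 1.73 CPM in fed E3 knockouts. Every knockout lay above every wild type, with a log2 difference of 0.84 (SE 0.32, edgeR adjusted p = 0.474). Foxj1 differed by -0.43 in fasted E5 knockouts (SE 0.16, edgeR adjusted p = 0.667) and by 0.56 in fasted E3 knockouts (SE 0.19, edgeR adjusted p = 0.21), neither past the test. Others named by the same rule were Dnah14 (-0.39) and Cfap300 (-0.43) in fasted E1, Rsph3a (-0.20) in fed E2, Rsph4a in fasted E2 (0.48) and fed E4 (0.34), Dnah17 in fed E4 (-0.54) and fasted E3 (0.72), Dnai1 (-0.36) in fed E3, Cfap100 (0.61), Cfap36 (-0.43) and Cfap418 (-0.34) in fasted E3, Cfap20dc (0.39) and Dnah12 (0.46) in fasted E4, Rsph6a (0.82), Cfap65 (-0.39), Dnah10 (-0.25) and Dnah7a (-0.31) in fed E5, and Cfap77 (-0.39) and Cfap126 (-0.60) in fasted E5. None of these passed the test.

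Whether the knockout difference depended on feeding state was asked next, and Ropn1l in E3 was the 1 gene called. In wild types it was at 14.1, 11.5 and 11.7 CPM fed and at 28.4, 25.7 and 31.9 CPM fasted. In knockouts it was at 15.6, 13.3 and 16.2 CPM fed and at 15.1, 15.4 and 15.7 CPM fasted. Fasted wild types thus lay above all 9 other E3 libraries, while fed and fasted knockouts overlapped. Within fasted E3 mice the knockout difference was -0.97 log2 (SE 0.14, unadjusted edgeR p = 5.4e-05, adjusted p = 0.146), and in the authors' deposited table of the same comparison it is listed at 0.96 log2 wild type over knockout with an adjusted p of 0.00738. The interaction of genotype and feeding, the difference of the knockout differences in fasted and fed mice, was -1.21 (SE 0.18, edgeR adjusted p = 0.0357). No other of the 72 genes was called in any of the 5 interaction tests, against 1.34% of all genes in E3 and 0% in each other line, and the median interaction of the 72 ran from -0.27 (E1) to 0.31 (E2). At an unadjusted p under 0.05, E1 had 0 genes higher and 11 lower (3.95% and 4.15% of all genes), and E2 had 9 and 0 (1.89% and 4.56%). By the same count E3 had 4 and 4 (9.99% and 10.4%), E4 had 8 and 1 (5.84% and 5.34%), and E5 had 3 and 2 (2.89% and 3.06%). The call was lost, with adjusted p between 0.0522 and 0.122, when any of 8 single libraries was left out (fed wild type 2 or 3, fed knockout 1, 2 or 3, fasted wild type 1 or 3, fasted knockout 2). It was also lost with a correction for GC content (-1.46, adjusted p = 0.0732), with replicate number as a block (-1.20, adjusted p = 0.0644; with both, -1.44 and 0.163) and without the choroid plexus libraries described below (-1.18, adjusted p = 0.115), while the sign stayed negative throughout.

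After food deprivation some of the 72 genes passed the test in both lines where it could be run, mostly lower in E1 and mostly higher in E3. Fed and fasted libraries shared a labelled batch number only in these 2 lines, and for the other lines feeding cannot be told apart from batch. In E1 wild types, edgeR called 10 of the 72 genes lower and 3 higher in fasted than in fed mice, against 4.62% of all genes lower and 4.31% higher, and the median log2 difference was -0.23 (0.01 over all genes). In E1 knockouts it called 42 lower and 1 higher, against 16.5% and 18% of all genes, with a median of -0.46 (0.01 over all genes). For E3 wild types the counts were 11 higher and 1 lower, with a median of 0.37 (-0.01 over all genes). The share called higher, 15.3%, was near the 12.2% of all genes, and the share called lower was 1.39% against 11.1%. For E3 knockouts they were 5 higher and 0 lower, against 0.705% and 0.0732%, with a median of 0.48. In bulk tissue, fewer ciliated cells and less RNA of these genes per cell cannot be told apart.

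The calls rested on individual libraries to different degrees. The 13 calls in E1 wild types became 8 without fasted wild type 2, and 5 of the 10 lower genes (Cfap299, Dnah6, Dnai3, Dnai4 and Tmem212) and all 3 higher ones stayed called in each of 20 alternative fits. In E1 knockouts 31 of the 42 lower genes did so. The 12 calls in E3 wild types became 7 without fed wild type 1, fasted wild type 1 or fasted wild type 3 and 26 without fasted wild type 2. Of the 11 higher genes, Cfap36, Cfap418 and Ropn1l stayed called in each alternative, as did the lower Dnah17. Within groups Cfap36, Cfap418 and Ropn1l correlated with the other genes at 0.40, 0.61 and 0.27, against a median of 0.59. The 5 calls in E3 knockouts became 0 without fed knockout 1, fed knockout 2 or fasted knockout 2, 1 without fed wild type 2 or fasted knockout 3, and 2 without fed knockout 3. None of those 5 stayed called in each alternative, and DESeq2 called 12.

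The 5 genes named singly include those that moved furthest. Tmem212 (chr3:27866066-27896368, minus strand) stood in E1 wild types at 19.4, 18.9, 12.7 and 13.2 CPM fed and at 9.74, 7.58 and 7.79 CPM fasted. In E1 knockouts it stood at 19.1, 16.4, 15.3 and 16.6 CPM fed and at 6.83, 5.03, 8.25 and 7.32 CPM fasted. Every fasted E1 library lay below every fed one, with log2 differences of -0.96 (SE 0.17, edgeR adjusted p = 0.00343) in wild types and -1.30 (SE 0.16, edgeR adjusted p = 5.35e-05) in knockouts. Tmem212 in E3 wild types was at 6.44, 8.4 and 11 CPM fed and at 15.6, 8.76 and 19.7 CPM fasted. In E3 knockouts it was at 4.59, 7.1 and 9.58 CPM fed and at 16.5, 23.4 and 29.3 CPM fasted. Here the wild type groups overlapped (0.79, SE 0.33, edgeR adjusted p = 0.103), while every fasted knockout lay above every fed one (1.68, SE 0.33, edgeR adjusted p = 0.0339). That call was lost without fed wild type 2, fed knockout 1 or 2, fasted wild type 1 or fasted knockout 2 or 3, with adjusted p from 0.0502 to 0.189.

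Ccdc153 was at 2.36, 3.14 and 4.89 CPM in fed and 9.39, 6.07 and 8.33 CPM in fasted E3 wild types, without overlap (1.21, SE 0.33, edgeR adjusted p = 0.0198). Dynlrb2 was at 0.956, 1.46 and 2.01 CPM in fed and 5.03, 3.06 and 4.28 CPM in fasted E3 wild types, again without overlap (1.5, SE 0.35, edgeR adjusted p = 0.00868), a call lost with a correction for exon length (1.0, adjusted p = 0.0604). In E1, Ccdc153 was lower in fasted knockouts (-0.51, SE 0.18, edgeR adjusted p = 0.042), and Dynlrb2 was not called in either genotype. Without any of fed E3 wild type 1 or 2 or fasted E3 wild type 1 or 3 the adjusted p of Ccdc153 in E3 lay between 0.0531 and 0.071, and its E1 call was lost without fed knockout 1, 2 or 3 or fasted knockout 2 or 3.

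Foxj1 (chr11:116330704-116335399, minus strand), the transcription factor of motile ciliogenesis, passed the test in none of the 4 fasting comparisons. In E1 it stood at 16.7, 14.6, 11.1 and 13.7 CPM in fed and 15.7, 19.4 and 11.9 CPM in fasted wild types. In E1 knockouts it stood at 15.7, 15, 16.4 and 14.9 CPM fed and 16, 19.4, 15.3 and 15.1 CPM fasted. Fed and fasted overlapped in both, with log2 differences of 0.12 (95% interval -0.17 to 0.41) and 0.07 (-0.19 to 0.34). E3 wild types had 13.6, 11.9 and 12.9 CPM fed and 12.2, 13.2 and 12.1 CPM fasted, with a difference of -0.01 (-0.41 to 0.40). In E3 knockouts it was 10.5, 10.4 and 17.4 CPM fed and 15, 17.8 and 25.4 CPM fasted, with overlap (0.58, SE 0.20, edgeR adjusted p = 0.241).

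**Figure D4:**
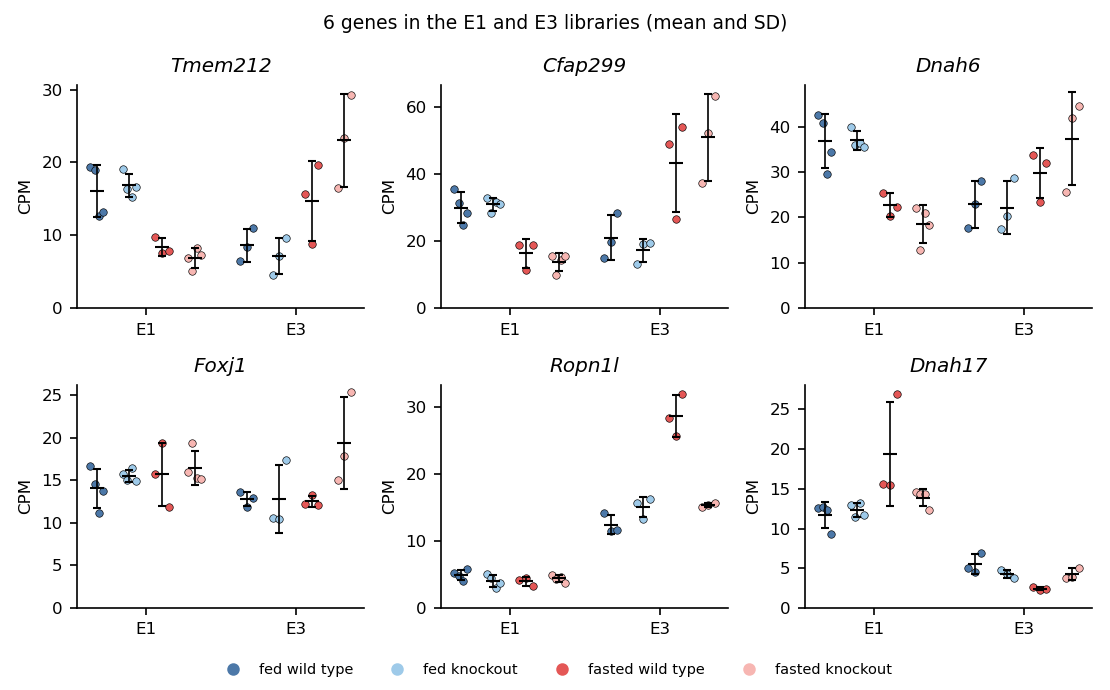
CPM of Tmem212, Cfap299, Dnah6, Foxj1, Ropn1l and Dnah17 in every E1 and E3 library (points), with the mean and SD of each group. In the top row fasted E1 libraries lie low and most fasted E3 libraries high, while Foxj1 overlaps between fed and fasted mice, Ropn1l is highest in fasted E3 wild types, and Dnah17 is lower in E3 than in E1.

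Among the outer arm heavy chains, 3 of 4 (75%, against 16.5% of all genes) fell in fasted E1 knockouts: Dnah11 (-0.78), Dnah9 (-0.66) and Dnah5 (-0.62). Dnah9, the most abundant of them, stood at 79.8, 71.9, 70.2 and 77.1 CPM in fed and 55.9, 38.6, 47.4 and 47.8 CPM in fasted E1 knockouts, without overlap (SE 0.12, edgeR adjusted p = 0.000606). In E1 wild types it was also called lower (-0.42, edgeR adjusted p = 0.0471), a call lost without any of 10 single libraries and at an adjusted p of 0.217 without fasted wild type 2. Dnah17, the fourth, is the outer arm heavy chain best known from sperm flagella, and it went the other way. It was 12.6, 12.7, 12.3 and 9.3 CPM in fed and 15.6, 15.5 and 26.9 CPM in fasted E1 wild types, with every fasted library higher (0.69, SE 0.16, edgeR adjusted p = 0.0151). In E3 wild types it was 4.98, 4.55 and 6.95 CPM fed and 2.68, 2.21 and 2.41 CPM fasted, with every fasted library lower (-1.16, SE 0.23, edgeR adjusted p = 0.0043). In knockouts its difference was 0.17 in E1 and -0.03 in E3, neither called.

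Of the 10 inner arm heavy chains, 5 fell in fasted E1 knockouts (Dnah6, Dnah3, Dnah2, Dnah7c and Dnah7b) and 0 rose. That is 50% and 0%, against 16.5% and 18% of all genes. Dnah6 (chr6:73017606-73221651, minus strand) was 42.7, 40.9, 29.6 and 34.4 CPM in fed and 25.5, 20.4 and 22.3 CPM in fasted E1 wild types. In E1 knockouts it was 40.1, 36.1, 36.5 and 35.5 CPM fed and 22.0, 12.7, 21.0 and 18.3 CPM fasted. No fasted library reached a fed one in either genotype, with differences of -0.73 (SE 0.14, edgeR adjusted p = 0.00662) and -1.01 (SE 0.13, edgeR adjusted p = 9.37e-05). Dnah12 was the inner arm chain called in both E3 genotypes, at 11.6, 16.6 and 20.8 CPM fed and 32.2, 21.1 and 35.5 CPM fasted in wild types (0.88, SE 0.26, edgeR adjusted p = 0.0271). In E3 knockouts it was 12.5, 18.8 and 16.6 CPM fed and 31.0, 36.1 and 49.9 CPM fasted (1.26, SE 0.26, edgeR adjusted p = 0.0395). Every fasted E3 library lay above every fed one of its genotype. The wild type call was lost without fed wild type 1 or 2 or fasted wild type 1 or 3 and with a correction for GC content (0.63, adjusted p = 0.108). The knockout call was lost without fed wild type 2, any fed knockout, fasted wild type 1 or fasted knockout 2 or 3. Dnah14 rose in fasted E1 wild types (0.69, SE 0.13, edgeR adjusted p = 0.00411), but its exons overlap those of Lbr on the opposite strand. Dnah7a was called higher in fasted E3 wild types (0.58) and Dnah7c lower in fasted E1 mice of both genotypes (-0.46 in wild types and -0.54 in knockouts). The Dnah7a call was lost without fed wild type 1 or 3 or fasted wild type 1 or 3 of E3, and the wild type call of Dnah7c without fasted wild type 1 or 2 of E1.

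Intermediate chains fell in fasted E1 mice of both genotypes, 3 of 4 in each: Dnai1, Dnai3 and Dnai4. That is 75% in each, against 4.62% of all genes in wild types and 16.5% in knockouts. Dnai3, a chain of an inner arm, stood at 10.4, 11.1, 8.09 and 9.25 CPM in fed and 6.61, 5.59 and 6.07 CPM in fasted E1 wild types. In E1 knockouts it stood at 11.7, 9.41, 11.5 and 10.6 CPM fed and 5.6, 3.58, 5.12 and 3.95 CPM fasted. Fed and fasted did not overlap in either, with differences of -0.70 (SE 0.14, edgeR adjusted p = 0.00807) and -1.25 (SE 0.13, edgeR adjusted p = 2.18e-05). Dnai1, an outer arm chain, was 6.07, 6.21 and 7.36 CPM in fed and 12.2, 10.2 and 15.7 CPM in fasted E3 knockouts, without overlap (0.93, SE 0.18, edgeR adjusted p = 0.0312), and this call was lost without any 1 of 8 libraries of E3.

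Of the 8 radial spoke genes, 6 (75%, against 16.5% of all genes) fell in fasted E1 knockouts, led by Rsph1 (-0.70), and 0 passed in E1 wild types. Rsph1 was 7.23, 7.42, 7.63 and 8.74 CPM in fed and 5.39, 4.67, 4.58 and 4.58 CPM in fasted E1 knockouts, without overlap (SE 0.14, edgeR adjusted p = 0.00153). Rsph4a, a spoke head protein, was lower in fasted E1 knockouts (-0.48, edgeR adjusted p = 0.0457) and higher in fasted E3 wild types (0.54, edgeR adjusted p = 0.0226), the first lost without any of 11 single libraries of E1 and the second without fed wild type 1 or 3 or fasted wild type 1 or 3. In the nexin-dynein regulatory complex Drc1 (-0.75, edgeR adjusted p = 0.000789) and Drc3 (-0.30, edgeR adjusted p = 0.0466) fell in fasted E1 knockouts, and 0 of 3 genes was called in E3. Drc1 and Drc3 were 66.7% of the complex, against 16.5% of all genes. The Drc3 call was lost without any of 7 single libraries of E1. Drc1 was 28, 23.8, 27.9 and 23.6 CPM in fed and 17.0, 12.6, 16.5 and 15.5 CPM in fasted E1 knockouts, without overlap.

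The 38 other Cfap genes that were tested include central pair, microtubule and arm-associated proteins. In fasted E1 knockouts 21 of them fell (55.3%, against 16.5% of all genes), by values from -0.36 (Cfap69) to -1.17 (Cfap299). After Cfap299 the furthest were Cfap57 (-1.16), Cfap46 (-1.02), Cfap65 (-0.98), Cfap52 (-0.97) and Cfap58 (-0.90). In E1 wild types 3 fell (7.89%, against 4.62% of all genes): Cfap299, Cfap57 (-0.80) and Cfap46 (-0.53). The Cfap57 and Cfap46 calls in wild types were each lost without fed wild type 1 or 2 or fasted wild type 1 or 2, and that of Cfap57 also without fed wild type 4. Cfap299 (chr5:98329304-98802047, plus strand) was the 1 gene called in all 4 fasting comparisons. It stood in E1 wild types at 35.5, 31.4, 24.7 and 28.3 CPM fed and at 18.8, 11.4 and 18.9 CPM fasted, and in E1 knockouts at 33, 28.4, 31.7 and 31.1 CPM fed and at 15.4, 9.82, 14.4 and 15.6 CPM fasted. In E3 wild types it stood at 15, 19.6 and 28.3 CPM fed and at 49.1, 26.7 and 54.1 CPM fasted, and in E3 knockouts at 13.2, 19 and 19.5 CPM fed and at 37.2, 52.4 and 63.3 CPM fasted. Only the E3 wild types overlapped. The differences were -0.90 (SE 0.17, edgeR adjusted p = 0.00472) and -1.17 (SE 0.16, edgeR adjusted p = 9.78e-05) in E1 and 1.07 (SE 0.30, edgeR adjusted p = 0.0206) and 1.54 (SE 0.30, edgeR adjusted p = 0.0312) in E3, wild types before knockouts. The E3 wild type call was lost without fed wild type 1 or 2 or fasted wild type 1 or 3 (adjusted p from 0.0687 to 0.0801). The E3 knockout call was lost without fed wild type 2, any fed knockout or fasted knockout 2 or 3 (0.0531 to 0.187). In fasted E3 wild types 5 of the 38 Cfap genes rose (13.2%), close to the 12.2% of all genes. Beside Cfap299 these were Cfap77 (0.91, edgeR adjusted p = 0.0216), Cfap418 (0.57, edgeR adjusted p = 0.00193), Cfap36 (0.51, edgeR adjusted p = 0.00219) and Cfap97 (0.46, edgeR adjusted p = 0.00708). Cfap36, the most abundant of the 74 genes, was at 83.9, 81.6 and 75.3 CPM fed and 120, 109 and 108 CPM fasted, with every fasted library higher. The Cfap77 call was lost without any fed wild type or fasted wild type 2, and that of Cfap97 with a correction for GC content (0.21, adjusted p = 0.155). In fasted E3 knockouts Cfap43 rose beside Cfap299, from 10.7, 13.7 and 18.5 to 23.4, 32.6 and 38.0 CPM (1.11, SE 0.20, edgeR adjusted p = 0.0251), and lost its call without fed knockout 1 or 2 or fasted knockout 2 or 3. Cfap46 fell in E1, from 93.2, 89.5, 109.0 and 95.3 CPM in fed to 59.9, 42.3, 50.6 and 39.8 CPM in fasted knockouts (-1.02, SE 0.13, edgeR adjusted p = 5.58e-05). In E3 it was not called in either genotype. E3 wild types were 32.8, 49.0 and 40.9 CPM fed and 24.1, 25.1 and 31.2 CPM fasted (-0.59, SE 0.22, edgeR adjusted p = 0.0663), and the difference in E3 knockouts was 0.21 (SE 0.22, edgeR adjusted p = 0.748). When the wild types of both lines were fitted together with line as a covariate, Cfap46 was called lower (-0.56, edgeR adjusted p = 0.0118) and Dnah14 (0.60), Cfap418 (0.30) and Cfap20 (0.23) higher, against 5.59% of all genes lower and 5.13% higher, with a median of 0.06. Of these 4, Cfap46 and Dnah14 stayed called in each alternative. The count was 9 without fasted E1 wild type 3 and 2 without fed E1 wild type 3, any fed E3 wild type, or fasted E3 wild type 1 or 3. Cfap20dc was the 1 gene that rose in fasted E1 knockouts (0.45, SE 0.07, edgeR adjusted p = 0.000164), from 21.4, 21.9, 20.7 and 20.2 CPM to 28.8, 28.1, 28.1 and 30.5 CPM, and it rose in E1 wild types as well (0.33, edgeR adjusted p = 0.00912).

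Counted by library rather than by test, 40 of the 72 genes had every fasted E1 knockout below every fed one (16.3% of all genes) and 1 had every fasted one above (15.2%). In E1 wild types these counts were 13 below (8.15%) and 6 above (13.5%). Of E3 wild types, 22 genes had every fasted library above every fed one (16.4% of all genes) and 2 below (20.1%), and in E3 knockouts 29 were above (11.9%) and 0 below (6.73%). Among wild types, 44 of the 72 genes had a lower fitted value in fasted E1 and a higher one in fasted E3 mice, and 4 the reverse. Among knockouts these counts were 55 and 2, and 40 genes showed the first pattern in both genotypes. The share of all genes with opposite directions in the 2 lines was not counted. In each comparison alone, 73.6% of the 72 genes had a negative value in E1 wild types (48.8% of all genes) and 84.7% in E1 knockouts (48.4%). In E3 wild types 18.1% were negative (50.5% of all genes), and in E3 knockouts 11.1% (49.8%).

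**Figure D5:**
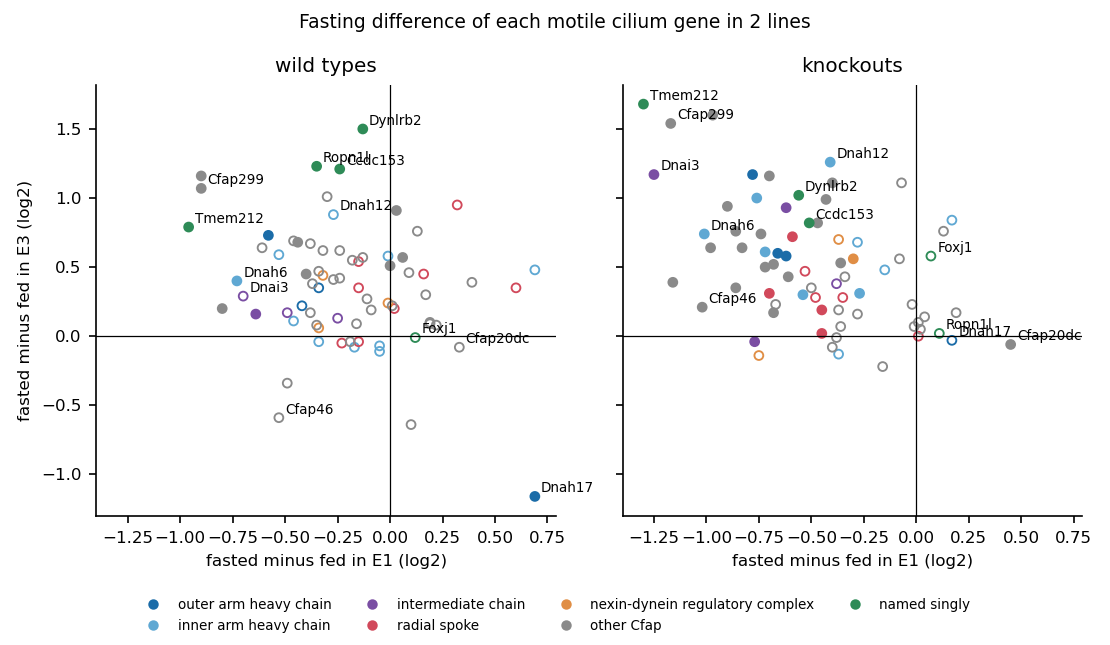
Log2 difference of fasted minus fed in E1 (x axis) against E3 (y axis) for each of the 72 genes, wild types and knockouts in separate panels, coloured by role and filled where the difference between lines was called. Most points lie in the upper left, with 44 genes there in wild types and 55 in knockouts. The share of all genes lying there was not counted.

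The difference between the 2 lines was then tested directly, a comparison added after these directions had been seen. It uses the libraries already described and is not independent of them. In wild types edgeR called the fasting difference lower in E1 than in E3 for 15 of the 72 genes and higher for 1, Dnah17, against 6.15% and 6.99% of all genes, with a median of -0.57 (0.02 over all genes). In knockouts it called 39 lower and 1 higher, Cfap20dc, against 3.88% and 2.97%, with a median of -0.88 (0.01 over all genes). Of the genes called lower, 10 were shared by both genotypes, Ccdc153, Cfap299, Cfap57, Cfap58, Cfap61, Dnah11, Dnah6, Dnai4, Dynlrb2 and Tmem212, which is 66.7% of the 15 and 25.6% of the 39. Of all 72 genes, 54.2% were called lower in knockouts and 20.8% in wild types, not far from these shares. The overlap was not tested. Tmem212 differed by -2.96 between lines in knockouts (SE 0.31, edgeR adjusted p = 0.000277) and by -1.74 in wild types (SE 0.39, edgeR adjusted p = 0.0128). For Cfap299 these values were -2.70 (SE 0.25, edgeR adjusted p = 0.000116) and -1.96 (SE 0.39, edgeR adjusted p = 0.00804). For Foxj1 they were -0.50 (95% interval -1.0 to 0.0) and 0.15 (-0.31 to 0.60), not called. The wild type count of 16 became 8 without fasted E1 wild type 2, 10 without fed E1 wild type 1 and 33 without fasted E3 wild type 2. Of the 15 lower genes 7 stayed called in each alternative, and of the 39 in knockouts 25 did. Line, sex by Ddx3y and labelled batch differed together here and cannot be told apart.

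Other genes of motile cilia, taken from a list of 68 that shares no gene with the 74, gave counts of the same kind. In fasted E1 knockouts 42 of 63 tested fell and 2 rose, among them Zmynd12 (0.52), with a median of -0.60. These were 66.7% and 3.17%, against 16.5% and 18% of all genes. In E1 wild types 7 fell and 2 rose (median -0.33), 11.1% and 3.17% against 4.62% and 4.31% of all genes. Of the 62 tested in E3 wild types 15 rose and 1 fell (median 0.43), 24.2% and 1.61% against 12.2% and 11.1%. In E3 knockouts 1, Tppp3, rose (median 0.56), 1.61% against 0.705%. Regulators of multiciliation, including Rfx2, Rfx3 and Ccno, had medians of -0.07, -0.19, -0.03 and -0.06 in the same 4 comparisons, with at most 3 of 20 or 21 tested genes called in either direction. In fasted E1 knockouts 2 were called higher, among them Ccno (1.42), and 3 lower, among them Rfx2 (-0.96). These were 9.52% and 14.3%, below the 18% and 16.5% of all genes. In fasted E3 wild types 2 were higher, among them Rfx3 (0.56), and 2 lower, 10% each against 12.2% and 11.1% of all genes. Between lines Rfx2 differed by -1.29 in knockouts and Rfx3 by -0.71 in wild types, with 1 and 2 regulators called the other way. Ependymal genes outside the axoneme had medians of -0.24, -0.36, 0.33 and 0.42 over 7 tested genes, of which at most 2 were called in either direction. In fasted E1 knockouts 28.6% of them were lower and 14.3% higher, against 16.5% and 18% of all genes. Of that list, Nnat and Sox2 were listed at 0 in every E1 and E3 library and Mia in every E3 library.

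Markers of other cells were read in the same libraries. Tanycyte markers, of cells that share the ventricle wall, summed to 440 to 529 CPM in fed and 524 to 636 CPM in fasted E3 wild types and had a median of 502 CPM in fed E3 knockouts and a range of 534 to 574 CPM in the fasted ones, every one of which lay above every fed knockout, with 3 of 15 called higher in wild types and 0 in knockouts. The 3 called in wild types were 20% of the tanycyte list, against 12.2% of all genes. In E1 the tanycyte markers summed to 426 to 476 CPM in fed and 405 to 509 CPM in fasted libraries, and Adm alone of the list was at 0. Choroid plexus markers summed to 343 to 400 CPM in fed and 346 to 886 CPM in fasted E3 wild types, and to 332 to 1283 and 331 to 1376 CPM in the E3 knockouts, with 0 of 18 called in either genotype. Kcnj13 alone of that list was at 0 in E1 and E3. Of those libraries, 2 (fed knockout 3 and fasted knockout 2) were above 3 times the median of the libraries of their line and feeding state, and without them edgeR called 0 of the 72 genes in fasted E3 knockouts. Astrocyte markers summed to 3429 to 3703 CPM in fed and 4490 to 4695 CPM in fasted E1 knockouts, with 7 of 12 higher and 0 lower. That is 58.3% and 0%, against 18% and 16.5% of all genes. Of the 12, 2 were higher and 2 lower in E1 wild types (16.7% each, against 4.31% and 4.62%). In E3 wild types 4 were higher (33.3%, against 12.2%) and 0 lower, and in E3 knockouts 2 were higher (16.7%, against 0.705%) and 0 lower. Thalamus markers were higher for 5 of 8 genes in fasted E1 knockouts and lower for 1, with summed levels that overlapped (1702 to 1864 CPM fed, 1432 to 2738 CPM fasted). That is 62.5% and 12.5%, against 18% and 16.5% of all genes. In E3 wild types 2 of these 8 were lower (25%, against 11.1%) and 0 higher, and 0 were called in E1 wild types or E3 knockouts. Red cell genes, the haemoglobins, were lower for 4 of 4 in fasted E1 wild types (median -1.88), E1 knockouts (-1.08) and E3 wild types (-3.20), and 0 of 4 were called in E3 knockouts (0.51). Of all genes 4.62%, 16.5% and 11.1% were lower in the first 3 of these. Red cell markers were scarce in E3, so the E3 values rest on few counts. They summed to 5.04 to 32.8 CPM in fed and 0.845 to 3.8 CPM in fasted E3 wild types. In E3 knockouts they summed to 0.788 to 4.0 CPM fed and 0.815 to 5.6 CPM fasted. E1 wild types held 465 to 1038 CPM fed and 113 to 408 CPM fasted, and E1 knockouts 440 to 856 and 183 to 431 CPM. The part of these cells in the results was not tested.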

How the data were processed

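Total RNA from the hypothalamus of 72 samples was sequenced, purified with Qiagen RNeasy and prepared with the Ultra II DNA kit per the labels' protocols. The deposited tables hold raw whole-number counts per gene, with no normalization, in 10 tables of 1 line and feeding state each; HISAT2, Bowtie2, edgeR and the mm10 genome are named in the submitters' processing notes, without versions, and the counting tool and strand are not given in the sources used here. The E1 and E3 tables list 21749 genes, so CPM there is scaled to the total of fewer genes. The authors also deposited edgeR tables of 8 genotype comparisons, giving log2 fold changes (wild type relative to knockout) and p-values, used for symbols and for the 1 sentence that names them. No sample column was left unmatched.

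All genes of a table entered edgeR's quasi-likelihood test (edgeR 4.0.16, R 4.3.3) after TMM scaling and filterByExpr (min.count 10, min.total.count 15). Called means an adjusted p under 0.05, by Benjamini and Hochberg over all genes tested. Genotype was fitted within each line and feeding state. Fasting and interactions came from models of the 4 groups of a line, and the pooled fasting fit had line as a covariate. Coordinates and exon lengths are from GENCODE M21 (GRCm38), which held 73 of the 74 genes. The fit was tested on simulated counts.

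Levels named are the 5 singly listed genes and up to 4 of highest CPM per role. Called genes are named, and otherwise up to 3 per direction with the smallest unadjusted p under 0.05. Alternatives were RLE factors, DESeq2 1.42.0, no low-count filter, a joint model of both feeding states, leaving out each library, a replicate block, a GC correction, and fits without 3 libraries whose choroid plexus markers summed to over 3 times the median of their line and feeding state. The difference between lines, length corrections, GC corrections outside E3 and levels over genes common to all tables were chosen after seeing the data. The 74 genes and the 15 other gene lists were chosen with earlier results of these data known. Single values of some genes of these lists are not reported here.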

Additional observations from a re-analysis of the deposited data

Results flagged for a closer look

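Single libraries stood apart from the other 3 of their group in 7 of 72 checks (12 groups of 4 and 6 quantities), where chance gives about 1 in 20. The summed level of the 74 genes was lowest in fasted E5 knockout 2, at 1332 CPM. Foxj1 was highest in fed E5 wild type 2, at 15.9 CPM, Ccdc153 in fasted E5 wild type 2, at 12.9 CPM, and Ropn1l in fed E5 knockout 4, at 7.22 CPM. Dynlrb2, the least abundant of the quantities checked, was highest in fed E1 knockout 3 (3.61 CPM), fasted E1 knockout 1 (2.88 CPM) and fasted E4 wild type 3 (3.50 CPM).

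In wild types 16 genes differed in their fasting difference between E1 and E3 by the direct edgeR test, given here as log2 differences, E1 minus E3. Of the dynein genes these were Dnah11 (-1.31), Dnah6 (-1.12), Dnai4 (-0.80) and, in the other direction, Dnah17 (1.85). Of the singly named genes they were Tmem212 (-1.74), Dynlrb2 (-1.61), Ropn1l (-1.57) and Ccdc153 (-1.44). Of the Cfap genes they were Cfap58 (-2.05), Cfap299 (-1.96), Cfap61 (-1.11), Cfap57 (-0.99), Cfap77 (-0.87), Cfap45 (-0.84), Cfap36 (-0.50) and Cfap418 (-0.50).

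In knockouts 40 genes differed in the same test. The outer arm heavy chains were Dnah11 (-1.93), Dnah9 (-1.24) and Dnah5 (-1.19). The inner arm heavy chains were Dnah3 (-1.75), Dnah6 (-1.73), Dnah12 (-1.66), Dnah2 (-1.32), Dnah7c (-0.83) and Dnah7b (-0.57), and the intermediate chains Dnai3 (-2.40), Dnai1 (-1.54) and Dnai4 (-0.72). The spoke genes were Rsph14 (-1.30), Rsph1 (-1.0), Rsph3b (-0.62) and Rsph3a (-0.45), and Drc3 (-0.85) was the 1 gene of the nexin-dynein regulatory complex. Tmem212 (-2.96), Dynlrb2 (-1.57) and Ccdc153 (-1.32) were the singly named ones. The Cfap genes were Cfap299 (-2.70), Cfap52 (-2.57), Cfap95 (-1.85), Cfap58 (-1.83), Cfap61 (-1.60), Cfap65 (-1.60), Cfap57 (-1.54), Cfap43 (-1.50), Cfap44 (-1.46), Cfap91 (-1.45), Cfap221 (-1.41), Cfap100 (-1.28), Cfap70 (-1.21), Cfap46 (-1.21), Cfap161 (-1.19), Cfap206 (-1.19), Cfap54 (-1.02), Cfap298 (-0.88) and Cfap74 (-0.83), with Cfap20dc (0.53) the other way. Of the singly named genes Ropn1l was called in wild types only, where its interaction of genotype and feeding in E3 (-1.21) was also called; its line difference was 0.11 in knockouts, and the difference between genotypes in that line difference was not tested.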

How the results depend on the processing

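Of 206 values for named genes, refitted 3844 times, 0 reversed sign. These genes were named for their small p in the same data, and the refits share most libraries. Kept signs were thus likely from the start and are no independent check. Of these refits 3410 stayed on the same side of the threshold, 344 lost and 90 gained a call. With each library left out in turn, the number of the 72 genes called ranged from 8 to 17 for fasting in E1 wild types, 33 to 47 in E1 knockouts, 7 to 26 in E3 wild types, 0 to 7 in E3 knockouts, 2 to 9 in the pooled wild types, 0 to 1 for the E3 interaction, 8 to 33 for the line difference in wild types and 27 to 45 in knockouts, and stayed 0 to 0 for each genotype comparison and the other 4 interactions. DESeq2 called 2 genes for genotype in fasted E3, 4 for the E3 interaction, 21 and 12 for fasting in E3 wild types and knockouts, 7 in the pooled wild types and 29 for the line difference in wild types. Both feeding states in one model gave 2 for genotype in fasted E3, and no low-count filter gave 2 for genotype in fasted E4 and 2 in the pooled wild types. Length correction gave 2 in E3 knockouts and 2 in the pooled wild types. Without the choroid plexus libraries 0 were called for fasting in E3 knockouts and 0 for the E3 interaction. GC correction gave 0 for the E3 interaction. The cause of these changes was not tested.

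The deviations of same-numbered libraries correlated at -0.0422, 0.0419 and -0.085 in fed E3 and at 0.0484, 0.0746 and 0.22 in fasted E3. Differently numbered libraries ran from -0.0948 to 0.118 in fed E3 and from -0.166 to 0.0728 in fasted E3. With 3 libraries a group these values cannot decide whether the numbers pair the samples. The replicate block gave 0 for the E3 interaction, alone or with GC correction, 17 for fasting in E3 wild types and 5 in E3 knockouts. Summed levels over genes common to all tables had a median of 1489 CPM in place of 1398. With 3 or 4 libraries a group, genes near 1 CPM such as Rsph10b are limited by depth.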

Other observations

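Genes of the primary cilium and of intraflagellar transport, the machinery that builds all cilia, were read as a further list of 39. In fasted E1 knockouts 13 of 38 tested fell and 1, Ift20, rose, with a median of -0.22 (34.2% lower, against 16.5% of all genes). In E1 wild types 5 fell and 0 rose (median -0.09), 13.2% lower against 4.62% of all genes. In E3 wild types 6 rose and 4 fell (median 0.05), 15.8% and 10.5%, close to the 12.2% and 11.1% of all genes, and in E3 knockouts 0 were called (median 0.02). The direct test of the line difference called 7 of 38 lower in wild types (6.15% of all genes) and 6 of 38 in knockouts (3.88%), with medians of -0.14 and -0.22, against -0.57 and -0.88 for the 72 axoneme genes.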
